A study of Homo sapiens with 18 samples.

Results

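Long intergenic noncoding RNAs are RNA molecules transcribed from between the protein-coding genes that are processed much like mRNAs but are not known to be translated. This account covers 156 of them, read from RNA sequencing of MDA-MB-231, a cell line long in culture that came from a triple-negative breast cancer. They are the rows of the gene table whose symbol begins with LINC and a number, or is MALAT1 or NEAT1, and whose level was 1 FPKM or more in 3 or more of the 18 libraries. FPKM is the number of fragments scaled to gene length and library size, so levels can be set side by side between genes; between libraries they also depend on what else each library holds, and other scalings were tried. Of 2278 rows with such a symbol, 1271 were listed at 0 in every library, 851 were above 0 but did not reach the rule, and 156 passed it, among 62830 rows in the whole table and 15764 genes that passed the same FPKM rule and were tested. The members were chosen by their measured FPKM levels over all 6 groups, so their being expressed is not a result. Just inside the rule lay LINC00852, LINC00216, LINC02321 and LINC01273, whose third-highest library held 1.013 to 1.052 FPKM, and just outside it lay LINC01376, LINC01096, LINC02918 and LINC00640 at 0.985 to 0.947 FPKM.

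Most RNAs of this class have only a number for a name, and for most of the members no function is given here. The main exceptions are a pair of abundant nuclear RNAs that lie close together on chromosome 11. MALAT1 gathers at nuclear speckles, the stores of splicing factors, and its end is cut by RNase P and protected by a triple helix in place of a poly(A) tail. NEAT1 is made as a short polyadenylated form and as a long form, and the long form is the scaffold on which paraspeckles assemble; paraspeckles are nuclear bodies that grow in stressed cells. Other noncoding RNAs are known to act on a nearby gene, to bind microRNAs or proteins, or to be the by-product of transcription at a regulatory element, and they are often less stable than mRNAs.

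The 6 groups had 3 libraries each: knockout cells with olaparib, wild-type cells with olaparib, knockout cells with siPARP1, wild-type cells with siPARP1, untreated knockout cells and untreated wild-type cells. The knockout targets TRIM27, which attaches ubiquitin to other proteins, and the labels do not say whether the cells are 1 clone or several. Olaparib, which inhibits the DNA damage sensor PARP1 and its relative PARP2, was given at 2 µM for 24 h, and the siRNA against PARP1 at 100 pM, as labelled, for 48 h. No library is labelled as having received a vehicle or a control siRNA, so untreated cells of the same genotype were the reference for both treatments, and the siRNA itself and its transfection cannot be told apart from the loss of PARP1. The stated purpose is to find the transcriptional changes that accompany TRIM27, PARP1 and PAX6 in invasion. Whether replicates were grown as separate cultures is not stated; p-values thus reflect the spread among the libraries at hand, which may be technical.

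TRIM27 averaged 0.62 FPKM in untreated knockout cells and 1.44 FPKM in untreated wild-type cells, and PARP1 averaged 9.25 and 10.7 FPKM in knockout and wild-type cells with siPARP1, against 55.2 and 56.2 FPKM without treatment. PARP1 was lower with olaparib too, at 40.1 FPKM in knockout and 38.8 in wild-type cells. With siPARP1 TRIM27 was higher than without treatment, at 0.99 FPKM in knockout and 1.945 in wild-type cells. VIM and CD44 were high in every group. Of the luminal and epithelial markers, CDH1, EPCAM, ESR1, PGR and FOXA1 had group means of at most 0.46 FPKM, but KRT8 averaged 293 to 1287, KRT18 498 to 1229 and GATA3 14.4 to 26.5 FPKM. Among markers of other cells PTPRC, CD3E, PECAM1, VWF, CDH5 and COL1A2 had group means of at most 0.028 FPKM, while CD68 averaged 4.33 FPKM in knockout cells with olaparib to 21.5 in wild-type cells with siPARP1, COL1A1 4.06 to 10.4 and PDGFRB 0.097 to 1.26 FPKM; their part in the results was not tested. Relative sequencing depth, read from the smallest steps between low values, ran from 0.748 to 1.236 of that of untreated wild-type replicate 1. It was lowest in wild-type cells with siPARP1 and highest in wild-type cells with olaparib. One fragment in a 1-kb RNA was worth about 0.0416 to 0.0687 FPKM, so low members rest on few fragments. Unnamed loci assembled by the authors held 43.4 to 49.8% of each library's FPKM, a share that was lower in all 4 treated groups than in untreated cells of the same genotype; its part in the results was not tested. Mitochondrial genes held on average 24.5% of annotated FPKM in knockout and 24.8% in wild-type cells with olaparib. With siPARP1 they held 27.6% and 25.8%, and without treatment 19.7% and 21.2%. The part of that difference was not tested either. In these bulk samples fewer cells with an RNA and less RNA per cell cannot be told apart.

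The members made up a small part of the transcriptome. Their summed level was 1042 ± 22.0 FPKM in knockout cells with olaparib, 1180 ± 128 in wild-type cells with olaparib, 826 ± 48.2 in knockout cells with siPARP1, 812 ± 12.9 in wild-type cells with siPARP1, 771 ± 8.95 in untreated knockout cells and 799 ± 27 in untreated wild-type cells (SD, n = 3 each). Leaving out MALAT1 and NEAT1, the other members held 0.204% ± 0.00060 and 0.223% ± 0.0010 of the FPKM of annotated genes in knockout and wild-type cells with olaparib, 0.150% ± 0.0057 and 0.147% ± 0.0067 with siPARP1, and 0.169% ± 0.0022 and 0.171% ± 0.0050 without treatment. The shares of the olaparib libraries lay above those of all untreated libraries, and those of the siPARP1 libraries below them. The members' median level over the 18 libraries was 2.16 FPKM, against 8.21 FPKM for all tested genes. Only 19 members averaged 10 FPKM or more, 118 averaged below 5, and 41 averaged below 1.

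A few RNAs supplied much of the sum. The 10 highest were LINC01293 at 75.0 FPKM over all libraries, LINC02154 at 71.5, LINC01291 at 60.8, NEAT1 at 54.2, MALAT1 at 46.3, LINC03061 at 44.8, LINC02432 at 24.6, LINC01615 at 21.8, LINC01116 at 21.6 and LINC02615 at 16.1, and together they held 48.3% of the members' FPKM. In GENCODE 29, 123 of the members are typed as lincRNA, 13 as processed transcript, 8 as antisense, 2 as bidirectional promoter and 1 as sense intronic. A further 8 are typed as transcribed pseudogenes, 5 of them unprocessed, 2 processed and 1 unitary, and 1, LINC02693, is still typed as protein-coding. The nearest protein-coding gene lay within 10 kb for 57 members and beyond 100 kb for 33, and 11 shared exon sequence with one. For LINC01089 the overlap with RHOF covered 41.7% of its exons, so the reads of that pair may be divided wrongly; no source used here gives the strand setting of the counting. LINC01605 has 2 rows in the table, the shorter of them, ENSG00000253414, lying within the body of the longer, ENSG00000253161, and how reads were divided between them is not known.

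The members differed in how widely they were present. All 18 libraries reached 1 FPKM for 78 of them. For 10 members only olaparib libraries did so, for 9 only siPARP1 libraries, for 4 only untreated ones, for 3 only knockout and for 4 only wild-type libraries, and these had to differ between groups. LINC02086 is one of the 10, and LINC02915, LINC02742 and LINC02936 are among the 4 that passed through wild-type libraries only. Counts are therefore also given for the 78 members present throughout.

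**Figure D1:**
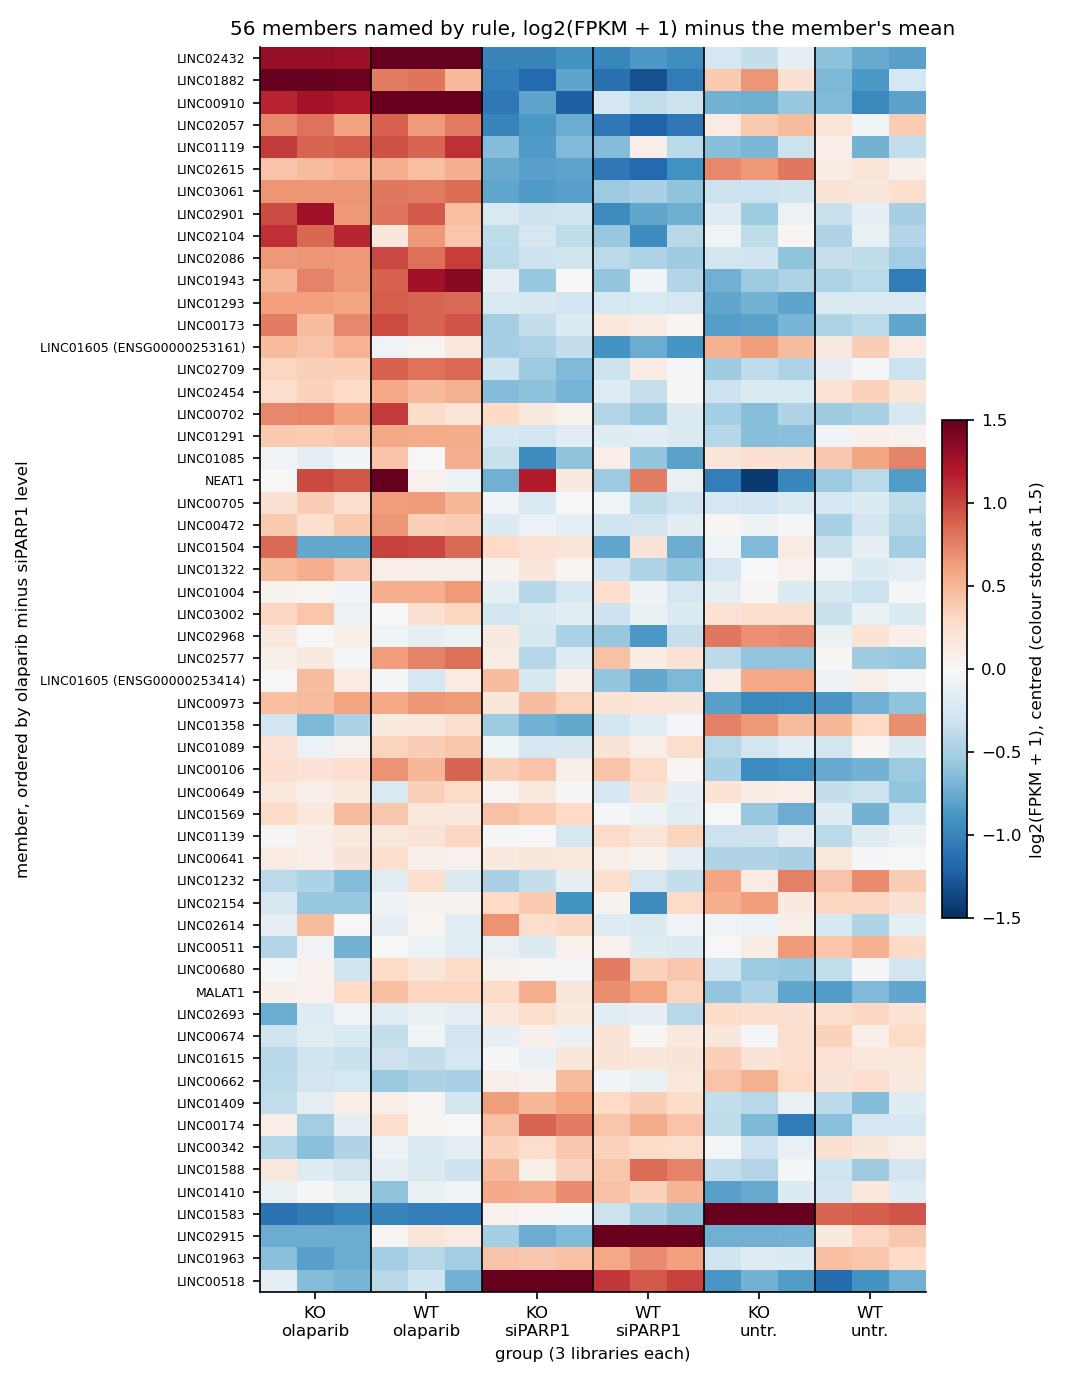
Heat map of the 56 members named by rule (rows) in the 18 libraries (columns, 3 per group; untr., untreated). Colour is log2(FPKM + 1) minus the member's own mean over the libraries, with the scale ending at 1.5 either way; LINC02432, LINC01882 and LINC00910 stand at the top with their highest levels under olaparib, and LINC00518 at the bottom with its highest under siPARP1.

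Each of the comparisons was fitted on log2(FPKM + 1) for the whole set of tested genes, and a call was made when its limma p-value, adjusted over all of them by the Benjamini-Hochberg method, was under 0.05. Olaparib gave the most calls among the members and leaned upwards. In knockout cells 53 members were higher and 32 lower with olaparib, 34.0% and 20.5% of the members, against 25.2% and 22% of all tested genes. In wild-type cells 66 were higher and 21 lower, 42.3% and 13.5%, against 24.9% and 20.4% of all tested genes. In knockout cells with siPARP1, 39 rose and 33 fell, 25.0% and 21.2%, against 31.9% and 22.8% of all tested genes. In wild-type cells with siPARP1, 37 rose and 31 fell, 23.7% and 19.9%, against 29.5% and 22.3%. Genotype gave fewer calls. In knockout against wild-type cells 20 were higher and 13 lower without treatment (background 9.58% and 10.9%), 6 higher and 20 lower with olaparib (5.68% and 7.16%), and 17 higher and 16 lower with siPARP1 (11.8% and 11.2%). With only the compared groups in the fit, the totals of 33 without treatment and 33 with siPARP1 became 21 and 20, and the 26 with olaparib became 17 without knockout olaparib replicate 2 or 3. The members' share lay furthest above the background for rises with olaparib in wild-type cells, and it lay below the background for rises with siPARP1 in both genotypes.

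Among the 78 members that reached 1 FPKM everywhere, 30 were higher and 17 lower with olaparib in knockout cells. In wild-type cells 33 of them were higher and 11 lower. The share over all tested genes that reached 1 FPKM everywhere was not computed, so the counts of the 78 are a description. Of the 78, 22 rose and 17 fell in knockout cells with siPARP1, and 19 rose and 17 fell in wild-type cells with siPARP1. In knockout against wild-type cells 2 of them were higher and 10 lower with olaparib, 11 and 8 with siPARP1, and 12 and 9 without treatment. Among members with a mean below 5 FPKM, 57 of 118 were called in either direction with olaparib in knockout cells, where 42.8% of all tested genes that low were called, and 62 of 118 in wild-type cells, where 40.9% were. Over the members the median log2 difference with olaparib was 0.13 for knockout cells and 0.21 for wild-type cells, beside 0.03 over all tested genes in both. Called changes of at least 1 on the log2 scale were 15 rises and 3 falls in knockout cells, where 2.65% and 2.12% of all tested genes had one, and 18 rises and 1 fall in wild-type cells, where 2.65% and 1.71% did. With siPARP1 they were 6 rises and 5 falls in knockout cells (3.74% and 3.36% of all tested genes) and 4 rises and 5 falls in wild-type cells (2.82% and 2.48%).

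**Figure D2:**
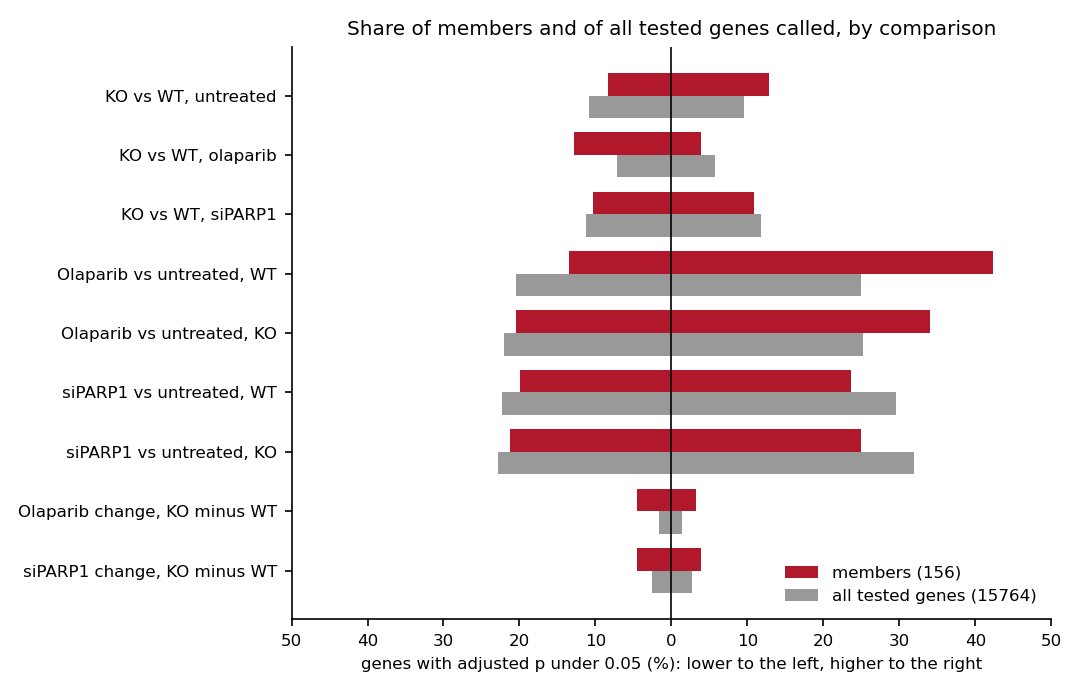
Share of the 156 members (red) and of all 15764 tested genes (grey) with an adjusted p under 0.05, for the 7 comparisons of 2 groups and the 2 tests of whether a treatment's change differs between genotypes. Bars to the right are higher and bars to the left lower in the group named first; members exceed all genes most in the rises under olaparib, 42.3% against 24.9% in wild-type cells.

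MALAT1 rose in all 4 treatment comparisons. It stood at 45.9, 45.5 and 53.3 FPKM in knockout cells with olaparib and 53, 64 and 49.1 with siPARP1, against 28.5, 31.4 and 24.9 FPKM in untreated knockout cells (log2 difference 0.75 ± 0.114 SE, adjusted p = 8.02e-05 for olaparib, and log2 difference 0.94 ± 0.114 SE, adjusted p = 6.62e-06 for siPARP1). In wild-type cells it stood at 60.0, 54.5 and 54.5 FPKM with olaparib and 71.2, 66 and 55 with siPARP1, against 24, 27.1 and 25 FPKM without treatment (log2 difference 1.12 ± 0.114 SE, adjusted p = 1.84e-06, and log2 difference 1.3 ± 0.114 SE, adjusted p = 2.90e-07). Every treated library lay above every untreated one of its genotype. Genotype made no difference that passed the test, and neither did the difference between genotypes in either treatment's change (adjusted p = 0.276 and 0.249). Most of its level sat in 1 transcript, ENST00000534336, of 8708 bases, which passed the transcript-level test in each of the 4 treatment comparisons too, with log2 differences of 0.74 and 1.20 for olaparib and 0.89 and 1.34 for siPARP1 in knockout and wild-type cells.

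The promoter of MALAT1 is shown because the RNA rose under both treatments and in both genotypes. In RefSeq on GRCh38.p14 the 250 bases before its start and the 50 after it are chr11:65497488-65497787 on the plus strand, and capitals mark the 5 matches to the GC box GGGCGG on either strand, a motif held by 44.6% of all 27305 promoters of that length:
MALAT1: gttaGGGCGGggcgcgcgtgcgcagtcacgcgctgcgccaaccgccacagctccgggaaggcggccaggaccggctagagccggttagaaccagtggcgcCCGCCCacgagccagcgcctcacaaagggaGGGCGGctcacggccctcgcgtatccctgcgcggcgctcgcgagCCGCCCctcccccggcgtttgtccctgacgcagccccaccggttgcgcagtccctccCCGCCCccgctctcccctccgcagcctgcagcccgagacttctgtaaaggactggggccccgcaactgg

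NEAT1 varied widely between libraries. Its gene level was 41.4, 82.5 and 79.4 FPKM in knockout cells with olaparib, 24.6, 94.8 and 45.2 with siPARP1 and 19.4, 14.6 and 20.4 without treatment. In wild-type cells it was 254, 42.9 and 38.9 FPKM with olaparib, 27.9, 70.9 and 38 with siPARP1 and 27.9, 30.8 and 22.6 without treatment. Under olaparib all 3 libraries of each genotype lay above all 3 untreated ones, but 1 wild-type library alone reached 254 FPKM, and only the rise in knockout cells passed the test (log2 difference 1.79 ± 0.619 SE, adjusted p = 0.0277); in wild-type cells adjusted p was 0.0706. That call was lost when no FPKM filter was used (adjusted p = 0.0646) and when untreated knockout replicate 1 or 2 or olaparib knockout replicate 2 or 3 was left out (adjusted p = 0.0531 to 0.0835).

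Splitting NEAT1 into its listed transcripts gave a different steadiness for each form. ENST00000499732, of 3441 bases, stood at 0, 13.984 and 1.247 FPKM in knockout cells with olaparib. ENST00000601801, of 3524 bases, stood at 0.374, 2.73 and 13.012 FPKM there. How reads were divided among the forms is not known, so the level of each form, the long form included, is uncertain. The long form, ENST00000501122, of 22743 bases, stood at 5.92, 5.17 and 3.9 FPKM in knockout cells with olaparib, against 2.26, 2.99 and 1.4 without treatment (log2 difference 0.92 ± 0.206 SE, adjusted p = 0.00851). In wild-type cells it stood at 5.44, 4.29 and 4.9 FPKM with olaparib, against 3.09, 2.69 and 1.61 without (0.78 ± 0.206 SE, adjusted p = 0.0236). The groups did not overlap in either genotype. With siPARP1 it stood at 2.62, 3.83 and 3.65 FPKM in knockout and 3.35, 3.4 and 3.22 in wild-type cells, and neither difference from untreated cells passed (adjusted p = 0.149 and 0.318). The outlying wild-type library was high in ENST00000612303, a form of 1053 bases, which held 218 of the 254 FPKM there and 15.4, 21 and 18.7 FPKM in untreated wild-type cells. In knockout cells this form stood at 33.4, 59.4 and 60.5 FPKM with olaparib, against 7.74, 4.56 and 17.7 without (log2 difference 2.38 ± 0.686 SE, adjusted p = 0.0352). It averaged 51.1 FPKM in knockout cells with olaparib, where the gene averaged 67.8 FPKM. Its difference with olaparib in wild-type cells did not pass (adjusted p = 0.141). This transcript test was chosen after the gene-level values had been seen. The libraries were made with oligo(dT) beads, and both MALAT1 and the long form of NEAT1 end without a poly(A) tail, so the part of each RNA that was captured is unknown.

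**Figure D3:**
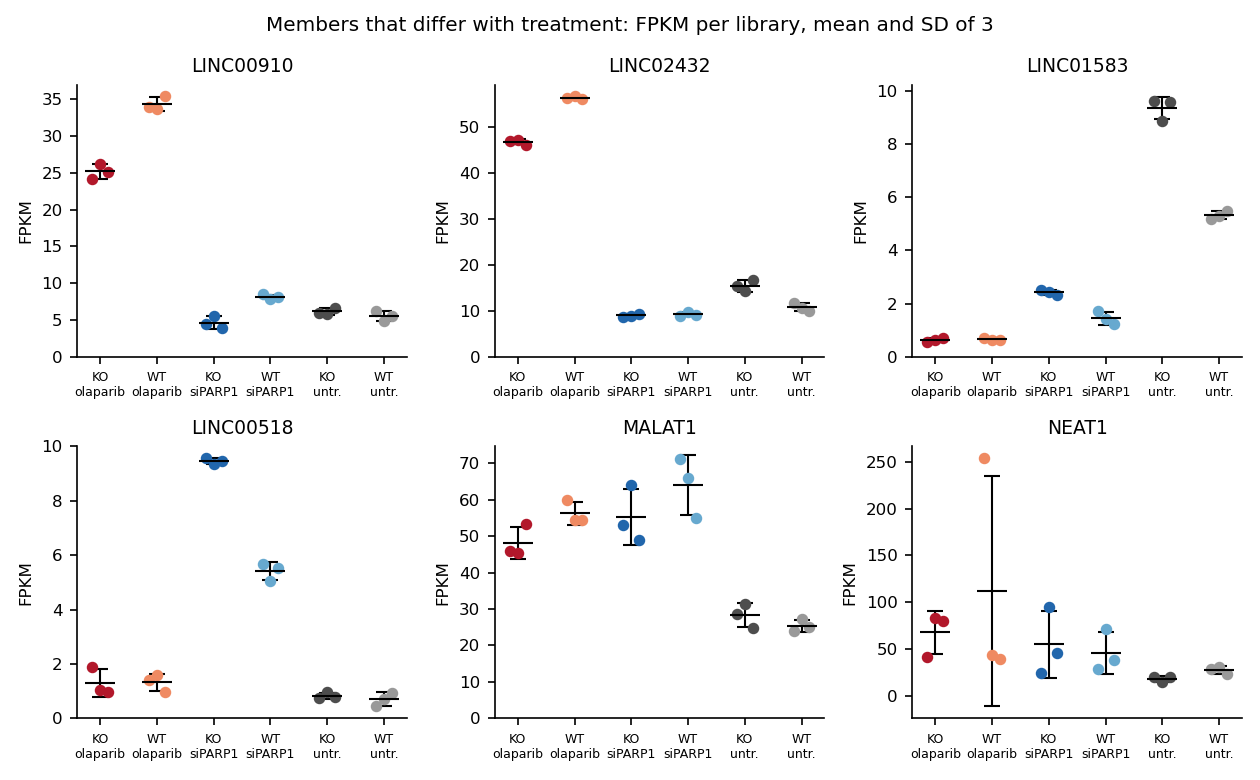
FPKM of 6 members in each library (points), by group, with the mean and SD of 3 libraries (bars; untr., untreated). LINC00910 and LINC02432 are highest under olaparib, LINC00518 under siPARP1, LINC01583 is lowest under olaparib, MALAT1 is higher in all treated groups, and 1 library sets the spread of NEAT1 in wild-type cells with olaparib.

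With olaparib 46 members were higher in both genotypes, of 53 higher in knockout and 66 higher in wild-type cells, and 19 were lower in both, of 32 lower in knockout and 21 lower in wild-type cells. These are 29.5% and 12.2% of the members, beside 18.5% and 15.7% of all tested genes. The 2 comparisons share no library. The largest rise belonged to LINC00910 (chr17:43369845-43389199, minus strand). It stood at 24.2, 26.2 and 25.2 FPKM in knockout cells with olaparib, against 5.97, 5.86 and 6.69 without treatment (log2 difference 1.87 ± 0.095 SE, adjusted p = 1.17e-09), and at 33.9, 33.6 and 35.4 FPKM in wild-type cells with olaparib, against 6.21, 4.86 and 5.53 without (log2 difference 2.44 ± 0.095 SE, adjusted p = 7.30e-11). The groups lay far apart. The 2 transcripts that GENCODE 29 lists for the gene held only 6.2% of its level, and their sum did not show the rise (log2 differences -0.05 in knockout and 0.37 in wild-type cells, neither passing), so most of the gene's level lies outside those transcripts.

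LINC02432 (chr4:141319450-141332618, minus strand) had the next largest rise in wild-type cells. It stood at 47, 47.2 and 46.2 FPKM in knockout cells with olaparib, against 15.4, 14.2 and 16.8 without (log2 difference 1.54 ± 0.060 SE, adjusted p = 6.21e-11), and at 56.4, 56.8 and 56 FPKM in wild-type cells with olaparib, against 11.7, 10.6 and 10.1 without (log2 difference 2.29 ± 0.060 SE, adjusted p = 9.93e-13). With siPARP1 the same RNA was lower, at 8.76, 8.82 and 9.42 FPKM in knockout and 8.91, 9.68 and 9.18 in wild-type cells (log2 differences -0.72 and -0.2, adjusted p = 1.45e-07 and 0.0129). Olaparib and siPARP1 were set against the same untreated libraries, so the values are given side by side only.

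LINC00973, LINC00173, LINC00106, LINC01119, LINC02086 and LINC01943 rose as well. LINC00973 averaged 14 ± 0.801 FPKM in knockout cells with olaparib and 4.6 ± 0.325 without, and 15.3 ± 0.541 FPKM in wild-type cells with olaparib and 5.37 ± 0.578 without (SD, n = 3 each; log2 differences 1.42 and 1.36). LINC00173, known from granulocyte development, averaged 7.42 ± 0.93 FPKM with and 2.12 ± 0.143 without olaparib in knockout cells, and 9.2 ± 0.361 with and 2.68 ± 0.498 without in wild-type cells (log2 differences 1.43 and 1.48). Both of these RNAs and LINC00106 were also higher with siPARP1 in both genotypes, with log2 differences between 0.42 and 1.24. LINC02086, which lies 13351 bases from HOXB7 on the opposite strand, averaged 2.3 and 3.07 FPKM with olaparib in knockout and wild-type cells, against 0.61 and 0.576 FPKM without; it passed the FPKM rule through olaparib libraries only, so this difference is a description. LINC01119 averaged 3.63 and 3.75 FPKM with olaparib, against 0.657 and 0.976 FPKM without, and LINC01943 3.17 and 5.09 FPKM, against 0.799 and 0.751 FPKM. None of these 3 was called with siPARP1 in either genotype (adjusted p = 0.16 to 0.99).

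The promoters of 3 of the RNAs that rose with olaparib in both genotypes are shown so that members moving together can be compared, and that of LINC01583, which fell, is set beside them. They are RefSeq windows on GRCh38.p14 of 250 bases before to 50 after the start. LINC00910 is chr17:43388849-43389148 on the minus strand, LINC00973 chr3:98914316-98914615 on the plus strand, LINC01943 chr2:87459047-87459346 on the minus strand and LINC01583 chr15:82088344-82088643 on the plus strand; RefSeq places the start of LINC00973 upstream of the one in GENCODE 29. Capitals mark a TATA box (TATAAA) in LINC00910, at 147 bases before the start, and an AP-1 motif (TGANTCA) at 185 bases before the start in LINC00973 and at 77 in LINC01943. In all, 7 motifs were searched on both strands, the others being CRE (TGACGTCA), CCAAT, the GC box GGGCGG, the E-box CACGTG and ATF4 (TGATGNAA), and none of them was found in the window of LINC01583:
LINC00910: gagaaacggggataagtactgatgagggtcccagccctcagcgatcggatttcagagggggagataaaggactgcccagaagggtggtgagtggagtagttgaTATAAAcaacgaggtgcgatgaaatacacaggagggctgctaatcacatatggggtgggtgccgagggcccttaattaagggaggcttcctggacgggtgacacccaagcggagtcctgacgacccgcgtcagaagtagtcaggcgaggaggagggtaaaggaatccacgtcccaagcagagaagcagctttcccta
LINC00973: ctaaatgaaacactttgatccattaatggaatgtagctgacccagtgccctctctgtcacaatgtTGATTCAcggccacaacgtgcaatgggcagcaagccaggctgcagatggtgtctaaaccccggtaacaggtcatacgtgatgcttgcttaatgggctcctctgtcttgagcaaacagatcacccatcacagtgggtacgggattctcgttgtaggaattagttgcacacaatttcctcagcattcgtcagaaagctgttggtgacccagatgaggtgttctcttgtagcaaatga
LINC01943: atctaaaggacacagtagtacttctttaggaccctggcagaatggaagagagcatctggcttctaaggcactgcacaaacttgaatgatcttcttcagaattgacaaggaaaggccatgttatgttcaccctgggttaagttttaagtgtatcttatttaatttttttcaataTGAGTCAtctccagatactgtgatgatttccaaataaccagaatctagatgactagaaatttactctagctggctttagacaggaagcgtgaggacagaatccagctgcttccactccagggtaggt
LINC01583: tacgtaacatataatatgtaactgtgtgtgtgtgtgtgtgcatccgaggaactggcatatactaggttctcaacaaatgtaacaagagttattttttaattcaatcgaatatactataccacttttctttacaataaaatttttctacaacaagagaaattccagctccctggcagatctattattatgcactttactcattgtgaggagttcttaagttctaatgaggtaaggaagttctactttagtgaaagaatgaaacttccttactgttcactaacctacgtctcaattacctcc

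Promoters were found in RefSeq's table for 106 of the 155 member symbols. AP-1 letters were in 15.1% of them and in 7.76% of all promoters of that length, CRE in 4.72% and 1.98%, CCAAT in 40.6% and 35.7%, TATAAA in 13.2% and 12%, GGGCGG in 44.3% and 44.6%, CACGTG in 3.77% and 7.43%, and ATF4 in 2.83% and 3.67%. A match is a description of letters, not of a bound site, and AP-1 matches were in 16 members, among them LINC01615 and LINC01358, which were lower with olaparib in knockout cells.

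The largest fall with olaparib belonged to LINC01583 (chr15:82088594-82097694, plus strand), the only member to fall by 1 or more on the log2 scale in wild-type cells. It stood at 0.566, 0.619 and 0.713 FPKM in knockout cells with olaparib, against 9.61, 8.88 and 9.6 without (log2 difference -2.67 ± 0.067 SE, adjusted p = 5.45e-13). In wild-type cells it stood at 0.693, 0.639 and 0.648 FPKM with olaparib, against 5.18, 5.3 and 5.49 without (log2 difference -1.93 ± 0.067 SE, adjusted p = 1.90e-11). With siPARP1 it stood at 2.52, 2.44 and 2.33 FPKM in knockout and 1.71, 1.4 and 1.22 in wild-type cells, also below untreated cells (log2 differences -1.59 and -1.38, adjusted p = 8.38e-11 and 5.44e-10). All treated libraries lay below all untreated ones of their genotype. Untreated knockout cells held more of it than untreated wild-type cells (log2 difference 0.71 ± 0.067 SE, adjusted p = 3.08e-06), while under olaparib the difference between genotypes did not pass (adjusted p = 0.87). Its nearest protein-coding gene, EFL1, 32536 bases away on the other strand, did not pass the test under olaparib in either genotype.

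Other falls were smaller. LINC00662 averaged 5.71 ± 0.342 FPKM in knockout cells with olaparib and 10.2 ± 0.914 without, and 4.88 ± 0.162 with and 8.54 ± 0.381 without in wild-type cells (log2 differences -0.74 and -0.7). LINC01615 averaged 16.7 ± 0.742 FPKM with and 26.1 ± 1.5 without olaparib in knockout cells, and 17.2 ± 0.685 with and 24.4 ± 0.594 without in wild-type cells (SD, n = 3 each). LINC00511, which other work has found raised in breast tumours, was lower with olaparib in both genotypes (log2 differences -0.65 and -0.49, adjusted p = 0.0052 and 0.0268), as was LINC01232 (-1.0 and -0.55, adjusted p = 0.000562 and 0.0288). In wild-type cells both calls were lost without the FPKM filter, and in knockout cells that of LINC00511 with only the compared groups in the fit (adjusted p = 0.0648). LINC01232 shares 5.7% of its exon sequence with TM9SF2, which was not called with olaparib. LINC01358 stood at 0.643, 0.255 and 0.442 FPKM in knockout cells with olaparib, against 2.38, 2.14 and 1.79 without (log2 difference -1.1 ± 0.121 SE, adjusted p = 3.45e-06), and its difference in wild-type cells did not pass (adjusted p = 0.0529). LINC02154, one of the most abundant members, was called lower only in knockout cells (log2 difference -0.9, adjusted p = 0.0312), with 1 untreated library at 75.5 and 2 others at 99.9 and 106 FPKM, and that call too was lost without the filter.

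LINC01291 and LINC01293 lie on the plus strand of chromosome 2 with 1840 bases between them, at chr2:74918148-74938418 and chr2:74940258-74942670. LINC01293 stood at 107, 107 and 104 FPKM in knockout cells with olaparib, against 39.9, 41.9 and 39.6 without (log2 difference 1.37 ± 0.034 SE, adjusted p = 5.45e-13), and at 131, 128 and 125 in wild-type cells with olaparib, against 59, 59.3 and 58.8 without (log2 difference 1.1 ± 0.034 SE, adjusted p = 5.84e-12). LINC01291 stood at 77.1, 76.6 and 78.8 FPKM with and 43.4, 37.2 and 37.7 without olaparib in knockout cells, and at 87.8, 86.7 and 86.7 with and 56.3, 62.1 and 61 without in wild-type cells (log2 differences 0.96 and 0.54). Both RNAs thus rose in both genotypes with no overlap. Both were lower in knockout than in wild-type cells without treatment, with log2 differences of -0.53 for LINC01293 and -0.59 for LINC01291 (adjusted p = 6.73e-08 and 3.14e-06). POLE4, the nearest protein-coding gene, averaged 33.4 FPKM in knockout and 32.0 in wild-type cells without treatment (adjusted p = 0.620). With olaparib it rose with the pair, to 53.0 FPKM in knockout and 46.0 in wild-type cells (log2 differences 0.65 and 0.51).

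With siPARP1 25 members were higher and 22 lower in both genotypes, 16% and 14.1% of the members, beside 23.5% and 17.6% of all tested genes. LINC00518 (chr6:10429255-10434874, minus strand), which a diagnostic test for melanoma measures, had the largest rise. It stood at 9.55, 9.35 and 9.46 FPKM in knockout cells with siPARP1, against 0.75, 0.954 and 0.793 without treatment (log2 difference 2.51 ± 0.143 SE, adjusted p = 2.26e-09), and at 5.67, 5.04 and 5.52 FPKM in wild-type cells with siPARP1, against 0.437, 0.719 and 0.949 without (log2 difference 1.92 ± 0.143 SE, adjusted p = 4.89e-08). Its groups lay far apart in both genotypes. With olaparib it averaged 1.3 and 1.32 FPKM in knockout and wild-type cells, and only the wild-type difference passed (log2 difference 0.45, adjusted p = 0.0195). TFAP2A, the transcription factor gene 9596 bases away on the same strand, was not called with siPARP1 in either genotype (adjusted p = 0.609 in knockout and 0.212 in wild-type cells), but was higher with olaparib in both, at 52.7 and 41.1 FPKM, against 37.2 and 22.9 FPKM without.

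LINC00973 stood at 10.8, 13.5 and 12.3 FPKM in knockout cells with siPARP1, against 4.98, 4.41 and 4.42 without (log2 difference 1.24 ± 0.079 SE, adjusted p = 7.53e-09), and at 11.1, 11 and 10.8 in wild-type cells with siPARP1, against 4.78, 5.4 and 5.93 without (log2 difference 0.92 ± 0.079 SE, adjusted p = 2.23e-07). LINC00174 averaged 6.33 and 5.22 FPKM with siPARP1 in knockout and wild-type cells, against 1.82 and 2.49 FPKM without, and passed in both. LINC01410, LINC01409 and LINC01569 were among the larger rises in knockout cells, at log2 differences of 1.2, 0.87 and 0.81. For LINC01409 the median over the 78 tested genes within 5 Mb was 0.40, so genes around it leaned upwards too.

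Among the falls, LINC02615 (chr4:128292751-128519394, plus strand) stood at 8.12, 7.76 and 7.94 FPKM in knockout cells with siPARP1, against 24.5, 23.3 and 25.8 without (log2 difference -1.51 ± 0.063 SE, adjusted p = 8.20e-11), and at 6.35, 5.86 and 7.26 FPKM in wild-type cells with siPARP1, against 15.7, 16.6 and 15.3 without (log2 difference -1.17 ± 0.063 SE, adjusted p = 1.53e-09). The groups did not overlap. PGRMC2, which lies 3922 bases away on the other strand, fell too, to 37.6 FPKM in knockout and 31.9 in wild-type cells with siPARP1, against 66.5 and 52.7 FPKM without, and the median over 14 tested genes within 5 Mb was -0.55 in both genotypes. LINC02057 averaged 0.803 ± 0.151 and 0.511 ± 0.080 FPKM with siPARP1 in knockout and wild-type cells, against 3.13 ± 0.509 and 2.72 ± 0.535 FPKM without (log2 differences -1.19 and -1.29), while its neighbour SMIM15 rose. The longer of the rows of LINC01605 averaged 8.63 ± 0.511 and 6.28 ± 0.436 FPKM with siPARP1, against 18 ± 1.07 and 14.1 ± 1.5 FPKM without (-0.98 and -1.05), and LINC03061 22.9 ± 0.633 and 27.8 ± 1.08 FPKM, against 32.8 ± 0.272 and 47.5 ± 1.43 FPKM (SD, n = 3 each). LINC03061 was higher with olaparib in both genotypes, at 65.6 ± 0.093 FPKM in knockout and 72.3 ± 1.59 in wild-type cells. Rescaling by the median of ratios shifted the median siPARP1 difference over all tested genes by -0.07 in both genotypes and changed none of the named members' calls, and the higher share of the members' siPARP1 calls became 48.0% in knockout and 47.8% in wild-type cells, beside 54.2% and 54.4%.

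The knockout comparisons ask what the loss of TRIM27 goes with in each condition, and they share no libraries with each other. One member was higher in knockout cells in all 3 conditions, the longer row of LINC01605, and 4 were lower in all 3, LINC02915, LINC02742, LINC01963 and LINC03061; this group of 5 was picked after the values had been seen. Over all tested genes 2.78% were higher and 3.22% lower in all 3. LINC02915 and LINC02742 entered the set through wild-type libraries alone, so that their levels differ by genotype follows from the FPKM rule, and they are described with no test of genotype. LINC02915 (chr15:39250684-39254845, plus strand) was almost absent from knockout cells. It was listed at 0 in all 3 knockout libraries with olaparib, against 0.712, 0.909 and 0.821 FPKM in wild-type cells with olaparib. It stood at 0.179, 0 and 0.061 FPKM in knockout and 3.82, 5.9 and 3.87 in wild-type cells with siPARP1, and at 0.017, 0.021 and 0.022 FPKM in untreated knockout and 0.852, 1.09 and 1.22 in untreated wild-type cells. In wild-type cells it was higher with siPARP1 than without treatment (log2 difference 1.41), and in knockout cells it was near 0 in both. That difference is a description too, since LINC02915 would not have passed the FPKM rule without its wild-type siPARP1 libraries.

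LINC02742 (chr11:28702615-29063821, plus strand) stood at 0.108, 0.146 and 0.103 FPKM in knockout and 1.35, 1.36 and 1.16 in wild-type cells with olaparib, and at 0.11, 0.201 and 0 FPKM in knockout and 1.72, 1.1 and 1.29 in wild-type cells with siPARP1. Without treatment it stood at 0.174, 0.097 and 0.434 FPKM in knockout and 0.948, 0.835 and 1.13 in wild-type cells. No treatment comparison passed (adjusted p = 0.0691 to 0.364). A few fragments separate such levels from 0. LINC02936, which passed the rule in the same way, was also listed at 0 in all 3 knockout libraries with olaparib and averaged 0.115 FPKM in wild-type cells with olaparib. It averaged 0.803 FPKM in knockout and 1.17 in wild-type cells with siPARP1, and 0.28 FPKM in knockout and 0.656 in wild-type cells without treatment. The promoters of LINC02915 and LINC02742 are shown as those of members near 0 in 1 genotype. The RefSeq windows on GRCh38.p14 are chr15:39250419-39250718 on the plus strand and chr11:28901987-28902286 on the plus strand, and capitals mark the CCAAT box of LINC02742, read on the other strand. RefSeq places the start of LINC02742 well inside the gene body given by GENCODE 29. The window of LINC02915 held none of the searched motifs:
LINC02915: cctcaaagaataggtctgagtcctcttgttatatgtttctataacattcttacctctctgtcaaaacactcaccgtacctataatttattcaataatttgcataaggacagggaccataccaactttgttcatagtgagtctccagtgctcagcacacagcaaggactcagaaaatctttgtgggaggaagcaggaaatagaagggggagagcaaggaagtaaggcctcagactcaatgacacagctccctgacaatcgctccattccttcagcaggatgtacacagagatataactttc
LINC02742: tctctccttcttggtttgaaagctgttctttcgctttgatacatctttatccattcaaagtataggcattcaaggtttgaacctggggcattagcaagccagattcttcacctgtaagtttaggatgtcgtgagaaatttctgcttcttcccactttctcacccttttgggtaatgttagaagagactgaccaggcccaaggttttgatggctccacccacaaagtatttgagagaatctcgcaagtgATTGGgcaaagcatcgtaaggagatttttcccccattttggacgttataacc

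LINC01963 stood at 2.83, 2.39 and 2.55 FPKM in knockout and 3.17, 3.44 and 3.13 in wild-type cells with olaparib (log2 difference -0.24 ± 0.060 SE, adjusted p = 0.014), at 7.0, 6.85 and 7.05 FPKM in knockout and 7.89, 8.7 and 8.07 in wild-type cells with siPARP1 (log2 difference -0.21 ± 0.060 SE, adjusted p = 0.0203), and at 3.84, 4.19 and 4.15 FPKM in untreated knockout and 7.09, 6.89 and 6.29 in untreated wild-type cells (log2 difference -0.62 ± 0.060 SE, adjusted p = 4.27e-06). LINC03061 stood at 32.7, 32.6 and 33.1 FPKM in knockout and 46.9, 46.4 and 49.1 in wild-type cells without treatment (log2 difference -0.52 ± 0.038 SE, adjusted p = 2.74e-07), and the difference was smaller with olaparib and siPARP1 (-0.14 and -0.27). In both RNAs the groups did not overlap in any condition. The longer row of LINC01605 stood at 17.2, 16.5 and 17.7 FPKM in knockout and 11.5, 12.4 and 13.6 in wild-type cells with olaparib (log2 difference 0.43 ± 0.077 SE, adjusted p = 0.0018), at 8.22, 8.47 and 9.21 FPKM in knockout and 6.0, 6.79 and 6.07 in wild-type cells with siPARP1 (log2 difference 0.4 ± 0.077 SE, adjusted p = 0.00166), and at 17.8, 19.2 and 17.1 FPKM in untreated knockout and 13.3, 15.8 and 13.1 in untreated wild-type cells (log2 difference 0.34 ± 0.077 SE, adjusted p = 0.00611). Its groups did not overlap either.

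LINC01882 (chr18:12739490-12776137, minus strand) had the largest fitted excess of knockout over wild-type cells among the members, both with olaparib and without treatment. It stood at 7.77, 7.93 and 6.39 FPKM in knockout and 3.55, 3.67 and 2.73 in wild-type cells with olaparib (log2 difference 0.96 ± 0.159 SE, adjusted p = 0.000949), and at 2.52, 3.24 and 2.14 FPKM in untreated knockout and 0.681, 0.47 and 1.22 in untreated wild-type cells (log2 difference 1.03 ± 0.159 SE, adjusted p = 0.000316). With siPARP1 it was low in both, at 0.311, 0.188 and 0.543 FPKM in knockout and 0.234, 0.078 and 0.288 in wild-type cells, and the difference did not pass (adjusted p = 0.518). PTPN2, the phosphatase gene 9341 bases away on the same strand, averaged 36.3 FPKM in untreated knockout and 29.7 in untreated wild-type cells (adjusted p = 0.0480), and the median log2 difference of the 39 tested genes within 5 Mb was 0.28 without treatment and 0.19 with olaparib. Summing only the transcripts listed in GENCODE 29, which held 56.0% of its level, left differences of 0.65 and 0.57 that did not pass.

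**Figure D4:**
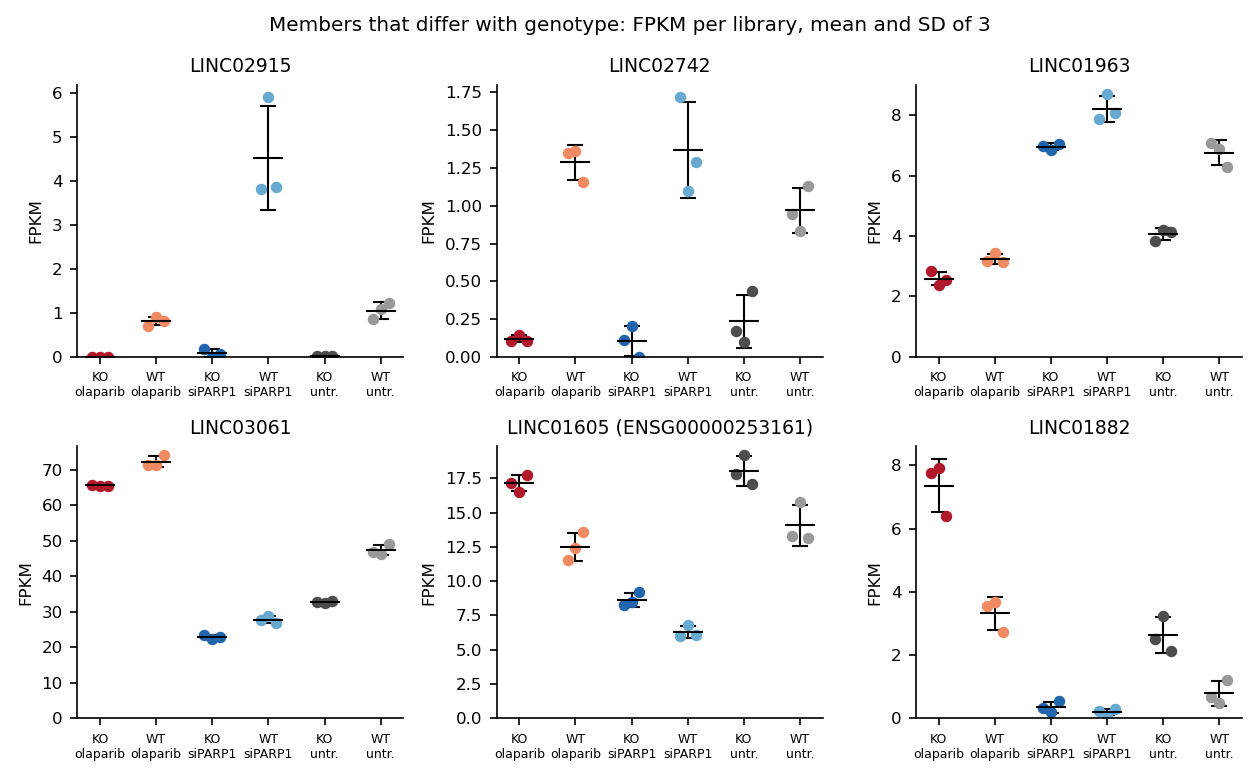
FPKM of 6 members in each library (points), by group, with the mean and SD of 3 libraries (bars; untr., untreated). Knockout cells stand left of wild-type cells within each condition: LINC02915 and LINC02742 are at or near 0 in knockout cells, LINC01963 and LINC03061 are lower, and LINC01605 and LINC01882 are higher, the last with overlapping libraries under siPARP1.

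In untreated cells the other named rises of knockout over wild-type cells were LINC02968, LINC02615, LINC00649, LINC02432, LINC03002 and LINC00472, with log2 differences between 0.37 and 0.67; LINC00472 has been described as lower in aggressive breast tumours. It averaged 10.9 ± 0.365 FPKM in knockout and 8.23 ± 0.724 in wild-type cells. Sums of the transcripts listed in GENCODE 29, which held 16.2% of its level, turned this direction (-0.48), as they did for LINC03002 (-0.069). The named falls were LINC01963, LINC01291, LINC01293, LINC03061, LINC00641, LINC02454 and LINC00342, between -0.62 and -0.32; the call of LINC00342 was lost with only the compared groups in the fit (adjusted p = 0.0684). With olaparib LINC02104, the longer LINC01605 row and LINC01322 were higher, and LINC02577, LINC01004, LINC02709, LINC00910, LINC00342, LINC01089 and LINC00705 lower. The calls of LINC01089 and LINC00705 were lost with a pseudocount of 0.1, without the FPKM filter, under TPM and with only the compared groups (adjusted p = 0.0503 to 0.0977), and that of LINC02104 with a pseudocount of 0.1 and with only the compared groups (0.124 and 0.0534). LINC01504 was lower as well, but its knockout libraries held 2.08, 0.0030 and 0.0030 FPKM, with 1 library far from the other two, and its call was lost under most alternatives. With siPARP1 the rises included LINC00518, at 9.46 FPKM in knockout and 5.41 in wild-type cells (log2 difference 0.71 ± 0.143 SE, adjusted p = 0.00244), and LINC01322 and LINC02901, and the falls included LINC00910, LINC00680, LINC02454, LINC00173, LINC01089 and LINC01139. The call of LINC02901 was lost without the filter (adjusted p = 0.0542), and those of LINC00680 and LINC01139 with only the compared groups (0.0511 and 0.0537). The direction of LINC01322, with olaparib and with siPARP1, and of LINC00910 with siPARP1 turned under sums of listed transcripts, which held 0.2% and 6.2% of their levels. LINC01139, known as LINK-A and studied in triple-negative breast cancer, averaged 8.09 ± 0.867 FPKM in knockout and 10.6 ± 0.62 in wild-type cells with siPARP1 (log2 difference -0.35 ± 0.089 SE, adjusted p = 0.0103). LINC01089, known as an RNA that growth factor signalling lowers in mammary cells, averaged 6.2 ± 0.553 and 8.32 ± 0.568 FPKM there and 7.58 ± 0.899 and 9.61 ± 0.286 FPKM with olaparib (SD, n = 3 each).

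Whether a treatment's change differed between genotypes was tested as an interaction, the change in knockout cells minus that in wild-type cells. Both interactions use the same untreated libraries, so a member that passed in both does not give 2 independent results. For olaparib 5 members had a positive and 7 a negative difference (1.4% and 1.66% of all tested genes), and for siPARP1 6 and 7 (2.74% and 2.52%). LINC02432 rose less with olaparib in knockout cells (log2 difference -0.75 ± 0.085 SE, adjusted p = 0.00024) and LINC01583 fell more (log2 difference -0.74 ± 0.094 SE, adjusted p = 0.000644). LINC00910 rose less with olaparib (log2 difference -0.57 ± 0.135 SE, adjusted p = 0.0348), and with siPARP1 it was lower in knockout cells, at 4.44, 5.59 and 3.88 against 5.97, 5.86 and 6.69 FPKM untreated, and higher in wild-type cells, at 8.48, 7.81 and 8.1 against 6.21, 4.86 and 5.53 FPKM (log2 difference -0.85 ± 0.135 SE, adjusted p = 0.00193). LINC01106, chosen after its values had been seen, moved in opposite directions in the 2 genotypes under both treatments. It stood at 1.34, 1.22 and 1.18 FPKM in knockout cells with olaparib, 1.41, 1.02 and 1.25 with siPARP1 and 1.35, 2.18 and 1.75 without, and in wild-type cells at 1.47, 1.51 and 1.5 FPKM with olaparib, 2.19, 1.96 and 1.7 with siPARP1 and 1.01, 0.886 and 0.812 without (interactions -0.68 for olaparib and -0.93 for siPARP1, adjusted p = 0.0182 and 0.00137).

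LINC00641 stood at 3.28, 3.2 and 3.47 FPKM in knockout cells with olaparib and 3.34, 3.43 and 3.37 with siPARP1, against 1.87, 1.88 and 1.79 FPKM without. In wild-type cells it stood at 3.63, 3.13 and 3.09 FPKM with olaparib, 3.16, 3.06 and 2.57 with siPARP1 and 3.38, 2.83 and 2.94 without, and both interactions passed (log2 difference 0.52 ± 0.099 SE, adjusted p = 0.0105, and log2 difference 0.67 ± 0.099 SE, adjusted p = 0.00112). The difference between genotypes passed without treatment and did not pass with either treatment. Both interactions share these untreated libraries, in which knockout cells held the lower level, so they are not independent. LINC01291 and LINC01293 had siPARP1 interactions of 0.54 and 0.53, LINC01291 being higher with siPARP1 in knockout and lower in wild-type cells. LINC02915 had the largest interaction, -1.33 for siPARP1, a call that was lost with a pseudocount of 0.1. It passed the FPKM rule through wild-type libraries only and was near 0 in knockout cells, so this value is a description.

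**Figure D5:**
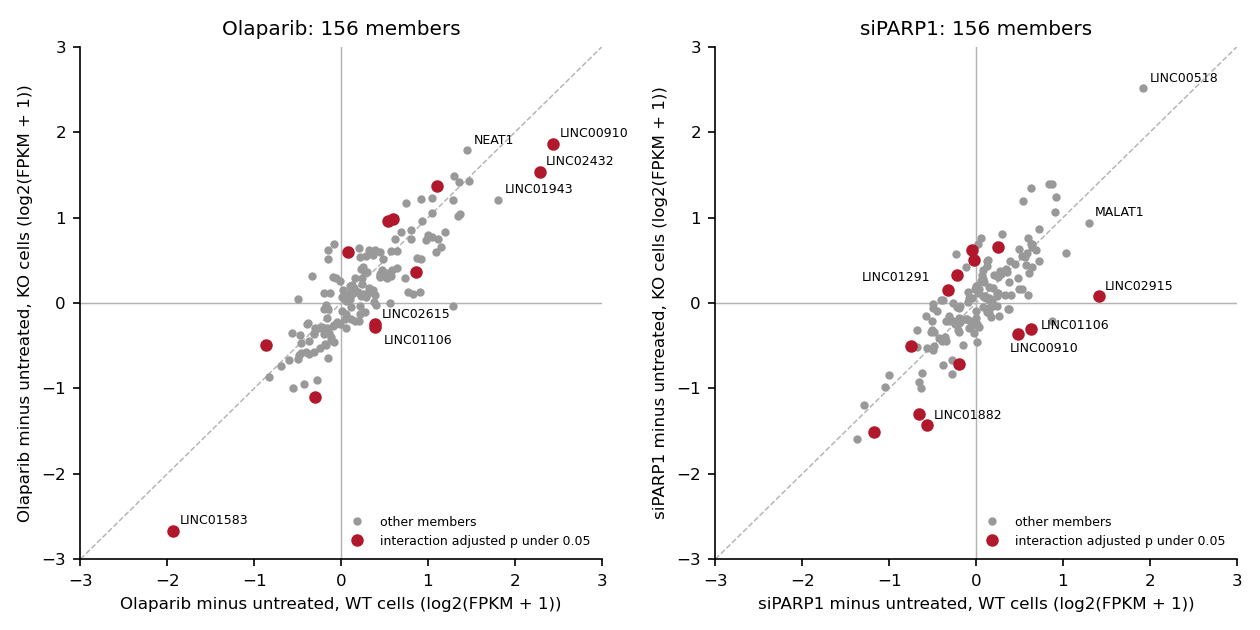
Each point is 1 of the 156 members, placed by its treatment change in wild-type cells (horizontal) and in knockout cells (vertical), both as differences in log2(FPKM + 1), for olaparib (left) and siPARP1 (right); the dashed line marks equal change. Red points are the 12 and 13 members whose change differed between genotypes with adjusted p under 0.05.

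Genes that work with these RNAs were looked at as 4 lists. Their counts stand beside the shares over all tested genes, which were 25.2% higher and 22% lower with olaparib in knockout cells, 24.9% and 20.4% in wild-type cells, 31.9% and 22.8% with siPARP1 in knockout cells, and 29.5% and 22.3% in wild-type cells. Of 21 genes for nuclear speckle proteins, where MALAT1 gathers, 9 were higher and 2 lower with olaparib in knockout cells, 10 and 3 in wild-type cells, 13 and 1 with siPARP1 in knockout cells, and 10 and 0 in wild-type cells, which in percent are 42.9 and 9.52, 47.6 and 14.3, 61.9 and 4.76, and 47.6 and 0. SON, the speckle's core protein, averaged 103 and 89.0 FPKM with siPARP1 in knockout and wild-type cells, against 61.0 and 62.5 FPKM without (log2 differences 0.74 and 0.50), and U2AF2, a splicing factor subunit, 81.2 and 82.8 FPKM with olaparib, against 51.8 and 52.5 FPKM (0.64 and 0.65). The list's median log2 difference was 0.15 to 0.38 over these 4 comparisons, beside 0.03 to 0.07 over all tested genes. No speckle gene was called in knockout against wild-type cells with olaparib, where 5.68% of all tested genes were higher and 7.16% lower. Without treatment 4 were lower, CLK1, RNPS1, SRSF6 and SRSF2, and 0 higher. These are 19% and 0%, beside 10.9% and 9.58% of all tested genes.

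Of 20 tested genes for paraspeckle proteins, which bind NEAT1, 3 were higher and 6 lower with olaparib in knockout cells, 3 and 7 in wild-type cells, 4 and 7 with siPARP1 in knockout cells, and 3 and 6 in wild-type cells. These are 15 to 20% higher and 30 to 35% lower. HNRNPA1 averaged 306 and 294 FPKM with olaparib in knockout and wild-type cells, against 558 and 543 FPKM without (log2 differences -0.86 and -0.88). NUDT21, a subunit of the complex that chooses poly(A) sites, was lower in all 4 treatment comparisons.

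Of 30 genes for the ends and the nuclear decay of noncoding RNAs, among them the RNase P subunits that cut MALAT1 and the nuclear exosome that degrades unstable RNAs, 11 were higher and 6 lower with olaparib in knockout cells, 11 and 8 in wild-type cells, 10 and 2 with siPARP1 in knockout cells, and 9 and 3 in wild-type cells. The shares higher were 36.7% with olaparib in both genotypes, and 33.3% in knockout and 30% in wild-type cells with siPARP1; those lower were 20% and 26.7% with olaparib and 6.67% and 10% with siPARP1. RPP25, a subunit of RNase P, averaged 15.9 and 13.8 FPKM with siPARP1 in knockout and wild-type cells, against 6.51 and 7.65 FPKM without (1.17 and 0.77). EXOSC4, a subunit of the exosome, averaged 15.0 and 14.2 FPKM with olaparib, against 8.91 and 8.69 FPKM (0.69 and 0.65). EXOSC7, another subunit, was higher in knockout than in wild-type cells in all 3 conditions. Of the list, 8 genes were lower and 1 higher in untreated knockout cells, 26.7% and 3.33%, beside 10.9% and 9.58% of all tested genes. With olaparib 1 was lower and 1 higher, and with siPARP1 2 and 2. The shares over all tested genes were 7.16% and 5.68% with olaparib and 11.2% and 11.8% with siPARP1.

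Of 30 other named long noncoding RNAs that the symbol rule leaves out, 19 were tested, and 8 were higher and 2 lower with olaparib in knockout cells, 9 and 2 in wild-type cells, 8 and 3 with siPARP1 in knockout cells, and 11 and 3 in wild-type cells, or 42.1% to 57.9% higher and 10.5% to 15.8% lower. LINC-PINT, which p53 induces, averaged 11.6 and 15.4 FPKM with olaparib in knockout and wild-type cells, and 22.8 and 22.7 FPKM with siPARP1, against 7.39 and 8.18 FPKM without. PURPL, another p53 target, averaged 52.1 and 65.6 FPKM with olaparib, against 27.3 and 24.8 FPKM without. LUCAT1, a stress-induced RNA, was lower in knockout than in wild-type cells in all 3 conditions, at 2.12 against 7.23 FPKM with olaparib, 2.83 against 8.46 FPKM with siPARP1 and 0.932 against 2.80 FPKM without treatment.

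The nearest protein-coding gene was tested for 120 members, with 108 distinct genes. Across members, the log2 difference of the RNA and that of its neighbour had a Pearson correlation of 0.07 to 0.27 over the 7 comparisons of 2 groups, as a description only, since neighbours share a chromosome stretch and some share a gene. Where both were called, they had the same direction for 22 of 39 with olaparib in knockout cells, 27 of 43 in wild-type cells, 17 of 29 with siPARP1 in knockout cells and 17 of 30 in wild-type cells. In the knockout comparisons the numbers were 5 of 5 with olaparib, 9 of 10 with siPARP1 and 7 of 9 without treatment.

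No call was made for 27 members in any of the 7 comparisons of 2 groups. Among them were LINC00460, LINC00707, LINC00839, LINC00857 and LINC01128, chosen here for illustration after their values had been seen, and a p that misses the threshold does not show that their levels were equal.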

How the data were processed

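Gene and transcript levels of 18 MDA-MB-231 libraries were used as FPKM values deposited by the authors, in 1 gene table and 1 transcript table. Libraries were made with oligo(dT) beads from TRIzol-extracted RNA, per the labels' protocols. Per the submitters' processing notes, the build was GRCh38 and the tools included StringTie 2.2.1, featureCounts 2.0.3, HISAT2 2.2.1, fastp 0.23.2 and DESeq2 1.38.3; which tool made the FPKM, the annotation release and the strand setting are not given in the sources used here. Counts were not used, so depth was read only approximately, from the steps between low values.

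With limma 3.58.1 (R 4.3.3; lmFit, eBayes with trend) all 6 groups were fitted together on log2(FPKM + 1) over 15764 genes at 1 FPKM or more in at least 3 libraries, with Benjamini-Hochberg adjustment and a threshold of 0.05. Tables and figures used Python 3.11.15, pandas 2.3.3, numpy 2.4.6 and matplotlib 3.10.9. Scripts were tested on simulated data. The members and the gene lists were chosen with earlier results of these data known. The text names MALAT1, NEAT1 and the 10 highest members. It also names those listed at 0 in all libraries of a group and with 1 FPKM or more in another. For each comparison it draws on up to 8 called rises and 8 called falls by size, not all of which are written out. These had a mean of 2 FPKM or more in the higher group and no overlap. For interactions up to 4 and 4 called members were taken. Nearest protein-coding genes and up to 4 genes of each list by adjusted p were drawn on too. Others were picked after their values had been seen. Some listed genes are not reported here. Positions are from GENCODE 29 on GRCh38, and promoters from RefSeq on GRCh38.p14. The alternatives were another pseudocount, no filter, TPM, median-of-ratios scaling, the compared groups alone, a replicate block, sums of listed transcripts and leaving out each library. A transcript-level fit of MALAT1 and NEAT1 over 44746 transcripts was added after the data had been seen.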

Additional observations from a re-analysis of the deposited data

Results flagged for a closer look

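The change with a treatment differed between genotypes, by the interaction test (limma, adjusted p under 0.05), for 12 members with olaparib and 13 with siPARP1. Values are the log2 change in knockout cells minus that in wild-type cells. Both treatments were set against the same untreated libraries, so the tests of a member under each treatment are not independent.
With olaparib the differences were positive for 5 members: 0.52 for LINC00641, 0.42 for LINC01291, 0.38 for LINC03061, 0.37 for LINC01963 and 0.26 for LINC01293.
With olaparib the differences were negative for 7 members: -0.49 for LINC00472, -0.57 for LINC00910, -0.64 for LINC02615, -0.68 for LINC01106, -0.74 for LINC01583, -0.75 for LINC02432 and -0.80 for LINC01358.
With siPARP1 the differences were positive for 6 members: 0.67 for LINC00641, 0.54 for LINC01291, 0.53 for LINC01293, 0.47 for LINC01322, 0.41 for LINC01963 and 0.25 for LINC03061.
With siPARP1 the differences were negative for 7 members: -0.34 for LINC02615, -0.52 for LINC02432, -0.65 for LINC01358, -0.85 for LINC00910, -0.87 for LINC01882, -0.93 for LINC01106 and -1.33 for LINC02915. The value of LINC02915 is a description, since it passed the FPKM rule through wild-type libraries only.
LINC01106 was higher with both treatments in wild-type cells and lower with both in knockout cells. The values of these members by library are given with the comparisons.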

How the results depend on the processing

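FPKM without counts limits the members below 5 FPKM most, and the strand setting and the division of reads between overlapping genes are unknown. With only the compared groups in the fit, 21 members were called for knockout against wild-type cells without treatment and 20 with siPARP1, against 33 and 33. Of 138 results for members named in a comparison or for MALAT1 and NEAT1, 12 calls were lost under that fit, 16 without the FPKM filter, 7 with a pseudocount of 0.1, 5 under TPM and 0 with median-of-ratios scaling. Those not named beside their result are the olaparib interactions of LINC01963 (under each of the first 4; adjusted p = 0.0502 to 0.0747) and LINC01358 (no filter), the siPARP1 interactions of LINC01322, LINC01358 and LINC01882 (up to 0.242), and LINC00702 and LINC02693 (no filter; 0.0517 to 0.0747). Sums of the transcripts listed in GENCODE 29 leave out much of some genes. With them 11 members were called for knockout against wild-type cells with olaparib, against 26. For olaparib in knockout cells 56 were called, against 85, and for the siPARP1 interaction 7, against 13. Of the 138 results, 24 lost their call under those sums, and LINC01504 gave no value there. Under those sums the direction turned for LINC03002 (-0.069) and LINC00472 (-0.48) without treatment, LINC01322 (-0.002) with olaparib, and LINC00702 (-0.038), LINC01322 (-0.11) and LINC00910 (0.068) with siPARP1, all in knockout against wild-type cells, for LINC00674 with olaparib in wild-type cells (0.086), for LINC00910 with olaparib in knockout cells (-0.05), and for the siPARP1 interaction of LINC01322 (-0.16); the cause was not tested.

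Leaving out 1 library at a time gave 17 to 21 calls for knockout against wild-type cells with olaparib, the lowest without knockout olaparib replicate 2 or 3, 25 to 30 with siPARP1 and 26 to 29 without treatment. It gave 75 to 82 calls for olaparib in knockout and 74 to 79 in wild-type cells, 64 to 69 for siPARP1 in knockout and 63 to 67 in wild-type cells, 8 to 13 for the olaparib interaction and 9 to 13 for the siPARP1 interaction. Over all these fits 83 results for the named members lost their call, beside 862 that stayed the same. The samples share only a replicate number: deviations of same-numbered libraries had correlations of -0.071 to 0.087. With the replicate number as a block, all 9 counts of calls stayed within 1.5 times, and calls were lost for LINC01504 (-1.19, adjusted p = 0.0596) and LINC01089 (-0.31, adjusted p = 0.0709) in knockout against wild-type cells with olaparib, and for the siPARP1 interaction of LINC01882 (-0.87, adjusted p = 0.0647).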
